A study of Rattus norvegicus with 6 samples.

Results

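The p38 MAPK cascade upstream of Hsp27 was examined as 10 genes of rat myocardium, taken by symbol from the deposited expression table, which held 28293 genes after rows that share a symbol were summed. All 10 were listed. They were Map3k5 at the top, the MAPK kinases Map2k3 and Map2k6, the p38 genes Mapk11, Mapk12, Mapk13 and Mapk14, and the downstream kinases Mapkapk2, Mapkapk3 and Mapkapk5. Hspb1, which encodes Hsp27, was followed beside them. The samples were myocardial tissue of wild-type male rats. In the MI/RI group (written I/R in the sample labels, n = 3) the left anterior descending coronary artery was tied for 30 min and the heart was taken 6 h after release. The other group was sham operated (n = 3), and its labels carry the same times. The study's methods describe vehicle injections for sham and reperfusion groups of its treatment experiment, and whether the sequenced samples received them is not stated. Strain, age and the region of the heart sampled are not given in the labels, and nothing says whether each numbered sample was a separate rat, so p-values measure the spread between these samples.

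The cascade passes stress signals down a chain of protein kinases. Map3k5 encodes ASK1, a kinase held inactive by thioredoxin and released by oxidative stress. ASK1 and related kinases phosphorylate MKK3 (Map2k3) and MKK6 (Map2k6), which in turn phosphorylate p38α (Mapk14), p38β (Mapk11), p38γ (Mapk12) and p38δ (Mapk13). Active p38α and p38β switch on MK2 (Mapkapk2) and MK3 (Mapkapk3), and MK2 is the best known kinase of Hsp27, a small heat shock protein that guards actin filaments and unfolded proteins. MK5 (Mapkapk5) is a more distant relative that also works with the atypical MAPKs ERK3 and ERK4. The pathway is controlled mainly by phosphorylation, which RNA levels do not measure.

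Promoter sequence is shown for the cascade genes that were called higher in MI/RI and for Hspb1. RefSeq sequence of the rat build GRCr8 covered 9 of the 10 cascade genes and Hspb1, with no entry for Mapkapk5. Each window holds the 250 bases before the annotated start, printed 5′ to 3′ on the strand of the gene. The capitals mark matches, on either strand, to a GC box (letters GGGCGG), an E-box (letters CACGTG), a promoter element with the letters CCAAT, a pair of heat shock units (letters GAANNTTC) and the run CCTTTAAGG, which was chosen after the windows had been read. The Map2k3 window lies at chr10:46107389-46107638 on the plus strand. The minus strand carries the Mapkapk2 window at chr13:45112327-45112576, the Mapkapk3 window at chr8:116842229-116842478 and the Hspb1 window at chr12:26432302-26432551.
Map2k3: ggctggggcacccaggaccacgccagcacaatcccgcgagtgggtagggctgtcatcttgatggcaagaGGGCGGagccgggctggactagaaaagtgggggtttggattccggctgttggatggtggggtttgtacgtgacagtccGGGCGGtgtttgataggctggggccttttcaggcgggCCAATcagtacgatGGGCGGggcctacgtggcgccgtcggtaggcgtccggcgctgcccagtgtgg
Mapkapk2: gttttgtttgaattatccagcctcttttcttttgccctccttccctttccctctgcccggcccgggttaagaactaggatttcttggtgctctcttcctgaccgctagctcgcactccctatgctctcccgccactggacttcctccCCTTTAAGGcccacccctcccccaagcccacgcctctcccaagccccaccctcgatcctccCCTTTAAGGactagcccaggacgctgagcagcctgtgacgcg
Mapkapk3: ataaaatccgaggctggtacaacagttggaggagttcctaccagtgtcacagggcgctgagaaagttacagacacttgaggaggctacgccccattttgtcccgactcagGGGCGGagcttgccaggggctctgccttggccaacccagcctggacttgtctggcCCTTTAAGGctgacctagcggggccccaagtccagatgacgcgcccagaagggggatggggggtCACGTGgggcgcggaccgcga
Hspb1: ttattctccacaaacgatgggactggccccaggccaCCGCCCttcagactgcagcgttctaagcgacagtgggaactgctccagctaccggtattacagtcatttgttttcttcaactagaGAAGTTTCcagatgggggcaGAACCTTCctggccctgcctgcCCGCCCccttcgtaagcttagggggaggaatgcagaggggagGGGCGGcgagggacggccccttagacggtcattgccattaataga

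Mapkapk2 and Mapkapk3 both carried CCTTTAAGG, which was found in 0.46% of the 33469 RefSeq promoter windows. This run was chosen as one that the 2 windows share, so its presence in both is no test. Mapkapk2 held it at 103 and 42 bases before the start and Mapkapk3 at 85 bases before it. The pair of heat shock units stood in 7.23% of all windows and, among the 10 genes with a window, in Hspb1 alone, at 129 and 109 bases before the start. The E-box, in 5.59% of windows, was matched by Mapk12 and Mapkapk3. The GC box (30.5% of windows) was matched by 8 of the 10 genes, the exceptions being Map2k6 and Mapkapk2. G and C made up 51.2% (Map2k6) to 80.8% (Map3k5 and Mapk13) of these windows, against a median of 51.2% over all windows. The 30.5% was not matched for this content. The CCAAT element (34.0% of windows) was matched by Map2k3, Map2k6 and Mapk14. None of the 10 windows held an AP-1 site (TGANTCA, 6.34% of windows) or a cAMP response element (TGACGTCA, 1.59% of windows). For Map3k5, Mapk13 and Mapk14 the start used lies inside the annotated gene. A match describes letters in a window and does not show binding of a factor. In the RefSeq annotation, Mapk11 lies next to Mapk12 and Mapk13 next to Mapk14, with 0 coding genes between the members of either pair.

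Values were deposited as FPKM, that is, fragments per kilobase of gene length relative to library size, so levels can be compared between genes per length. The FPKM of a sample summed to 894902 to 928941 in sham and to 731063 to 825490 in MI/RI. The 13 mRNAs encoded by the mitochondrial genome took 80.1% to 86.2% of that sum in sham and 61.8% to 71.5% in MI/RI. Cardiomyocyte markers also moved with the groups. Their summed FPKM was 3086 to 9779 in sham and 17912 to 23421 in MI/RI, and 5 of the 6 markers analysed, of 7 on the list, were called higher, with a median log2 fold change of 2.10. The part of these shifts in the values of the cascade was not tested, and in bulk tissue fewer cells of a type and less RNA per cell cannot be told apart. FPKM values moved between samples in whole steps in 99.8% of the 19481 genes above 0 (within 0.002 reads), so numbers of reads could be recovered up to a common multiple. Apart from Mapk13, the cascade genes rested on 14 to 7203 reads per sample.

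Of the 10 cascade genes, 9 passed the filter of a mean of at least 0.5 FPKM and were tested among 10942 genes with limma on log2(FPKM + 0.1), a scale that understates the change of low genes. Map2k3, Mapkapk2 and Mapkapk3 were called higher in MI/RI at an adjusted p under 0.05, although the direction of each turned when samples were centred on the cardiomyocyte markers. Map3k5 was called lower. It was called lower under that centring too, which lowers every fold change by the same amount and called 8217 of all 10942 genes lower. A gene already below 0 was bound to stay below 0 there. As deposited, the other 5 tested genes were not called. Over all genes tested, 25.5% were called higher and 7.36% lower. Every MI/RI value lay above every sham value for 5 cascade genes and below it for 2, against 37.2% and 13% of all genes tested. The median log2 fold change was 0.47 over the 9 cascade genes and 0.29 over all genes, and 5 of the 9 lay above that overall median. Map2k3, Mapkapk2, Mapkapk3 and Hspb1 are shown in the study's own heat map of these samples, so their direction is not independent evidence.

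**Figure D1:**
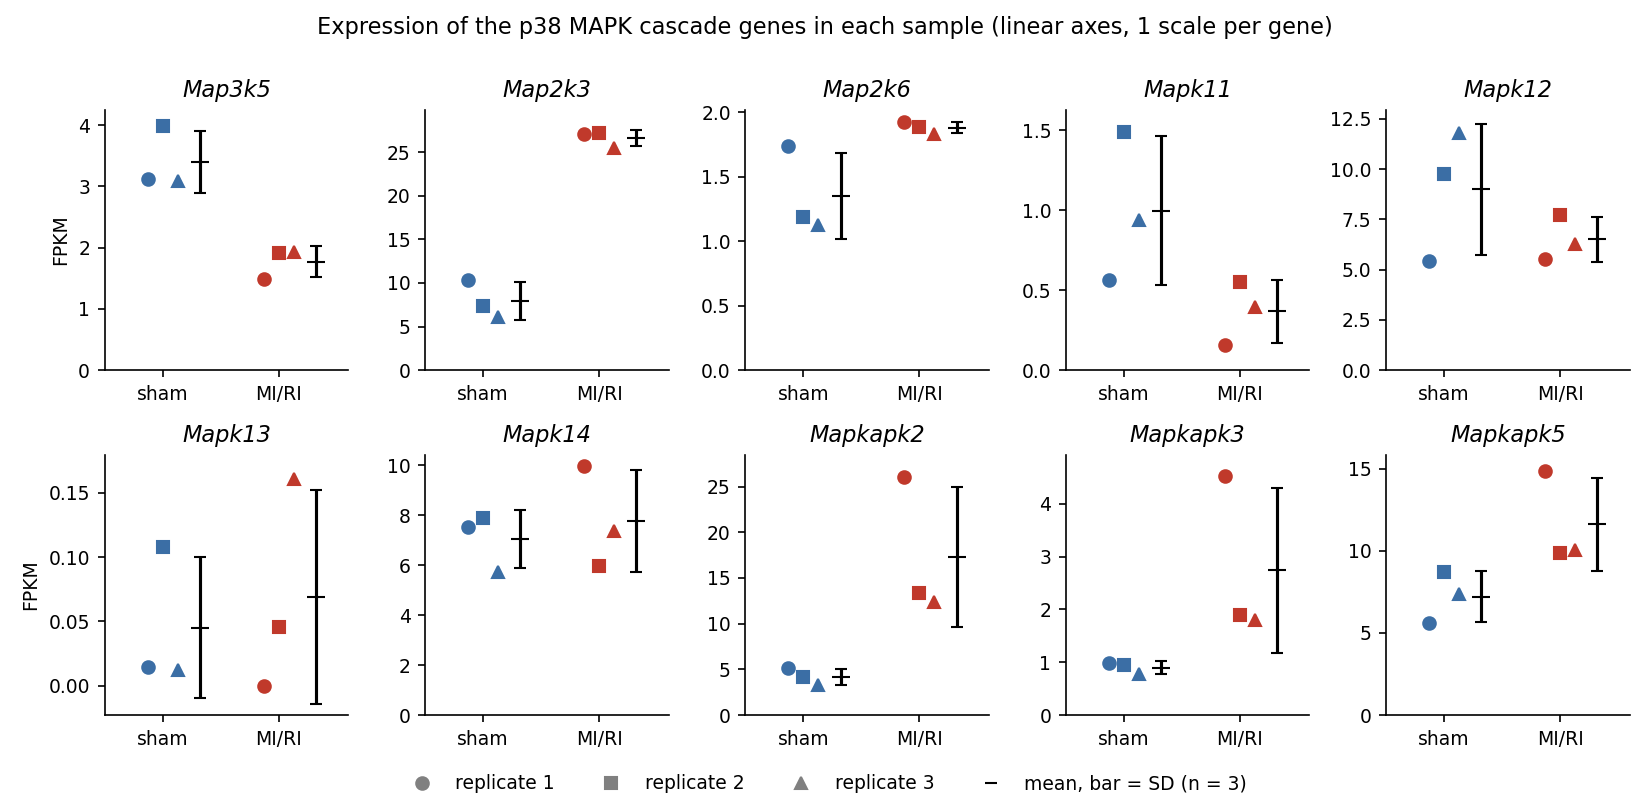
FPKM (linear axis, a separate scale for each gene) of the 10 cascade genes in the 3 sham (blue) and 3 MI/RI (red) samples, with marker shape for the replicate number and black bars for the mean ± SD (n = 3). The MI/RI samples of Map2k3 sit between 25.6 and 27.3 FPKM against at most 10.4 in sham, while the samples of Mapk12 and Mapk14 overlap.

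At the top of the cascade, Map3k5 (ENSRNOG00000031700) was at 3.12, 3.99 and 3.09 FPKM in the sham samples and at 1.48, 1.91 and 1.92 FPKM in the MI/RI samples. The groups did not overlap, and the highest MI/RI sample stayed below the lowest sham sample. The mean level was 3.40 ± 0.509 FPKM (SD, n = 3) in sham and 1.77 ± 0.252 FPKM (SD, n = 3) in MI/RI. On the log2 scale the change was −0.90 with a standard error of 0.23 (95% interval −1.41 to −0.40, adjusted p = 0.0149, limma). Relative to the median of all genes it was −1.20, and 7.70% of genes fell more. Without sham replicate 2, which had the highest level, the log2 fold change was −0.79 and the adjusted p 0.0508 (limma), so the call was lost. Between 344 and 1255 reads lay behind each value.

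A list of 12 kinases and adaptors that also feed p38 was matched for 11 genes. Of the 10 tested, 3 were called higher, a share near the 25.5% of all genes, and 0 lower (0 lower at an unadjusted p under 0.05 too, limma), with a median log2 fold change of 0.59. Map3k6, a close relative of Map3k5 that encodes ASK2, was at 4.12, 3.27 and 2.0 FPKM in sham and at 5.93, 12.5 and 9.98 FPKM in MI/RI. This was a rise of 1.56 on the log2 scale (adjusted p = 0.0089, limma, standard error 0.34), opposite in sign to that of Map3k5 except when centred on the cardiomyocyte markers, where Map3k6 was at −0.44 (adjusted p = 0.433, limma). Its FPKM values did not overlap between groups. Map3k20, which encodes the ribotoxic stress kinase ZAK, had a log2 fold change of 0.84 (adjusted p = 0.0238, limma). Tab2, an adaptor of the kinase TAK1, had one of 0.81 (adjusted p = 0.0404, limma). Map3k6 alone was called without sham replicate 1 or 3 or without any 1 of the MI/RI samples, which left 1 call, while without sham replicate 2 there were 3. With samples rescaled over genes other than the mitochondrial mRNAs, 0 of the 10 were called higher and 2 lower, and the values of these 3 genes were 0.79, 0.069 and 0.044. Centred on the cardiomyocyte markers, 0 were called higher and 8 lower, Map3k20 and Tab2 among them. Over all 10942 genes, 2857 were called lower without the mitochondrial mRNAs and 8217 centred on the cardiomyocyte markers. Map3k6 is also in the study's heat map of these samples.

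Partners of ASK1 were mostly not called, with 1 of 7 higher, 0 lower (1, Daxx, at an unadjusted p under 0.05, limma) and a median log2 fold change of 0.35. The shares over all genes tested were 25.5% higher and 7.36% lower. The gene called was Txn2, mitochondrial thioredoxin, which was at 21.0, 15.9 and 12.1 FPKM in sham and 56.1, 45.1 and 39.9 FPKM in MI/RI (log2 fold change 1.54, standard error 0.27, adjusted p = 0.0043, limma). It stayed above 0 under each scaling tried except centring on the cardiomyocyte markers (−0.46). Ppp5c, a phosphatase that acts on ASK1, had a value of 0.55 (adjusted p = 0.157, limma), and Daxx, an activator of ASK1, one of −0.51 (adjusted p = 0.108, limma). Daxx was called lower when centred on the median (−0.76, adjusted p = 0.0191, limma), after quantile normalization, without the mitochondrial mRNAs (−1.27) and centred on the cardiomyocyte markers. Under these 4 scalings 2, 3, 3 and 6 of the 7 partners were called lower, where 1554, 1559, 2857 and 8217 of all 10942 genes were.

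Of the MAPK kinases, Map2k3 (ENSRNOG00000065992) was at 10.4, 7.33 and 6.09 FPKM in the sham samples and at 27.1, 27.3 and 25.6 FPKM in the MI/RI samples. All MI/RI values were more than any sham value, and they lay close together. The fitted log2 fold change was 1.77 with a standard error of 0.25 (95% interval 1.22 to 2.32, adjusted p = 0.0027, limma), which is 3.41-fold (2.33 to 5.0). Relative to the median of all genes it was 1.48, and 5.51% of genes rose more. The call held without any 1 sample, with log2 fold changes of 1.6 to 1.98 and adjusted p-values up to 0.0194 (limma).

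Map2k6 (ENSRNOG00000004437) was at 1.74, 1.19 and 1.13 FPKM in sham and at 1.92, 1.89 and 1.84 FPKM in MI/RI. The groups did not overlap, yet sham replicate 1 lay close to the MI/RI samples and the gene was not called. Its log2 fold change was 0.47 with a standard error of 0.24 (95% interval −0.07 to 1.02, adjusted p = 0.161, limma), and it turned to −0.26 when samples were rescaled without the mitochondrial mRNAs. Between 106 and 146 reads lay behind each value, so the counting error of a single sample was 8.28% to 9.71%.

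In every sample Map2k3 was the higher of the 2 MAPK kinases. A ratio of FPKM values within a sample does not change when the sample is rescaled. The ratio of Map2k6 to Map2k3 (FPKM with nothing added) was 0.168, 0.162 and 0.185 in the sham samples and 0.0709, 0.0691 and 0.0719 in the MI/RI samples. The samples of a group lay close together and the groups did not overlap. On the log2 scale, with 0.1 added to the FPKM of both genes, the ratio was −2.46 ± 0.11 (SD, n = 3) in sham and −3.75 ± 0.03 (SD, n = 3) in MI/RI. The difference was −1.30 (p = 0.1, two-sided exact permutation test, with 0.2 after adjustment over the 6 ratios compared). With 3 against 3 samples 0.1 is the smallest value possible, so the design cannot reach 0.05 for a ratio.

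Of the p38 genes, Mapk14 (p38α, ENSRNOG00000000513) was at 7.52, 7.88 and 5.71 FPKM in sham and at 9.97, 5.98 and 7.37 FPKM in MI/RI. The groups overlapped, with MI/RI replicate 1 highest and sham replicate 3 lowest. The mean was 7.04 ± 1.16 FPKM (SD, n = 3) in sham and 7.78 ± 2.03 FPKM (SD, n = 3) in MI/RI. Its log2 fold change was 0.12 with a standard error of 0.26 (95% interval −0.45 to 0.70, adjusted p = 0.737, limma), which is 1.09-fold (0.732 to 1.62). Its sign turned without sham replicate 3 (−0.017) or MI/RI replicate 1 (−0.069) and under 4 of the 5 other scalings. Between 828 and 1377 reads lay behind each value.

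Mapk12 (p38γ, ENSRNOG00000031233), the p38 form typical of striated muscle, was at 5.44, 9.73 and 11.8 FPKM in sham and at 5.53, 7.73 and 6.29 FPKM in MI/RI. The groups overlapped, since sham replicate 1 was lower than every MI/RI sample. The log2 fold change was −0.40 with a standard error of 0.30 (95% interval −1.08 to 0.28, adjusted p = 0.332, limma). It was negative in all alternatives run, and it was called lower only where samples were rescaled without the mitochondrial mRNAs (−1.18, adjusted p = 0.0237, limma) or centred on the cardiomyocyte markers (−2.40).

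Mapk11 (p38β, ENSRNOG00000006984) was at 0.563, 1.49 and 0.939 FPKM in sham and at 0.158, 0.549 and 0.392 FPKM in MI/RI. The groups did not overlap, but the lowest sham and the highest MI/RI value were nearly equal. The 57 reads of that sham sample and the 52 of that MI/RI sample gave exact Poisson 95% intervals of 0.426 to 0.729 and 0.410 to 0.720 FPKM, which overlap. Such intervals cover counting error only. The fitted log2 fold change was −1.24 with a standard error of 0.46 (95% interval −2.28 to −0.21), and it was not called (adjusted p = 0.0648, limma). With the replicate number as a block, although the study pairs no samples, it was called lower (adjusted p = 0.0225, limma), which raised the number of cascade genes called lower from 1 to 2. It was also called without sham replicate 1 (−1.56, adjusted p = 0.0403) or without MI/RI replicate 2 (−1.53, adjusted p = 0.0491, limma). Centring on the median (−1.49, adjusted p = 0.0436, limma) and rescaling without the mitochondrial mRNAs (−1.89, adjusted p = 0.0142, limma) called it lower too. So did centring on the cardiomyocyte markers (−3.24) and a fit with no intensity trend (adjusted p = 0.0492, limma). In 10 of its 17 alternatives it was not called.

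Mapk13 (p38δ, ENSRNOG00000000515), known mainly from epithelia and immune cells, was at 0.0142, 0.108 and 0.0125 FPKM in sham and at 0, 0.0456 and 0.161 FPKM in MI/RI. These values stood for 1, 9 and 1 reads in sham and 0, 3 and 10 reads in MI/RI, or 11 against 13 in all. The gene was below the filter and was not tested, and no difference was detectable at this depth.

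The order of the p38 genes was read from their shares of the summed FPKM of the 4 genes, which was 13.5, 19.2 and 18.5 FPKM in sham and 15.7, 14.3 and 14.2 FPKM in MI/RI. Mapk14 took 55.5%, 41.0% and 30.9% in sham and 63.7%, 41.8% and 51.9% in MI/RI. The share of Mapk12 was 40.2%, 50.7% and 63.9% in sham and 35.3%, 54.0% and 44.3% in MI/RI. Mapk14 and Mapk12 together made up nearly all of the sum in every sample, and which of them led varied within both groups, so their order did not differ beyond its spread. Mapk11 came next, with 4.16%, 7.75% and 5.08% in sham and 1.01%, 3.84% and 2.76% in MI/RI, without overlap between the groups. Mapk13 took at most 1.13%, and it lay below Mapk11 in each sample.

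**Figure D2:**
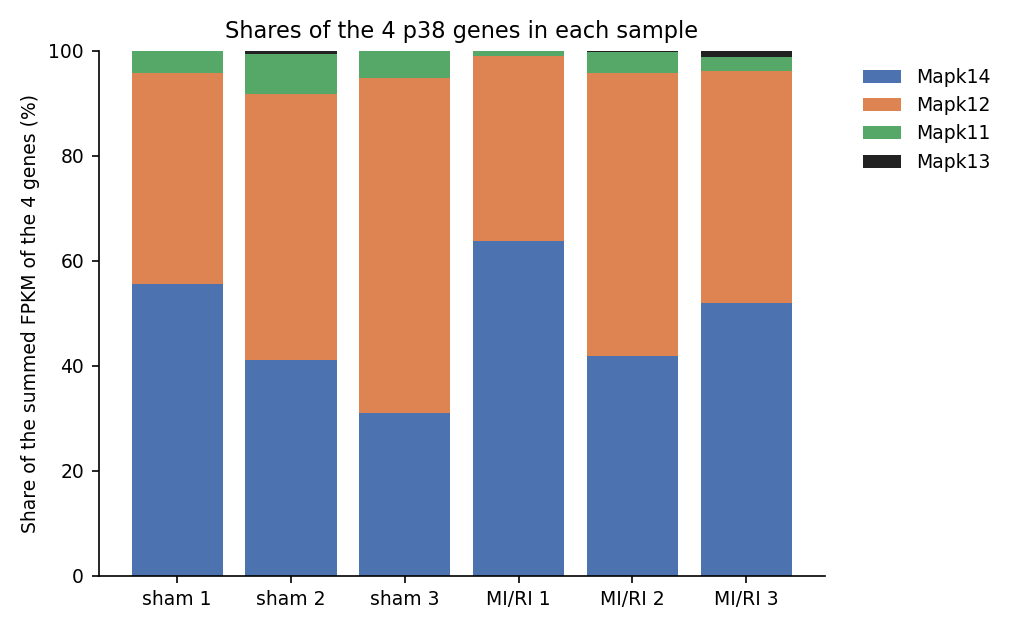
Stacked bars of the share (%) of the summed FPKM of the 4 p38 genes taken by each of them, 1 bar per sample. Mapk14 runs from 30.9% to 63.7% and Mapk12 from 35.3% to 63.9% across the 6 samples, and Mapk11 stays at 7.75% or less.

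Against Mapk14 of the same sample, the log2 ratio of Mapk11 was −2.78 ± 0.65 (SD, n = 3) in sham and −4.15 ± 1.05 (SD, n = 3) in MI/RI, and the groups overlapped (difference −1.37, two-sided exact permutation test, p = 0.2, adjusted p = 0.3). That of Mapk12 was 0.29 ± 0.75 (SD, n = 3) in sham and −0.23 ± 0.60 (SD, n = 3) in MI/RI (difference −0.53, two-sided exact permutation test, p = 0.5, adjusted p = 0.5). Neither difference was larger than the spread between samples in a way this test could show.

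The genes of the downstream kinases MK2 and MK3 rose on the deposited scale. Mapkapk2 (ENSRNOG00000004726) was at 5.12, 4.14 and 3.31 FPKM in the sham samples and at 26.1, 13.4 and 12.4 FPKM in the MI/RI samples. Every MI/RI sample was above every sham sample, and MI/RI replicate 1 stood well above its group. Its log2 fold change was 1.95 with a standard error of 0.32 (95% interval 1.25 to 2.66, adjusted p = 0.0036, limma), which is 3.88-fold (2.38 to 6.31). Relative to the median of all genes it was 1.66, and 3.79% of genes rose more. Without MI/RI replicate 1 the log2 fold change was 1.62, the lowest with any 1 sample left out, and the adjusted p was at most 0.0263 (limma) over those fits. Centring on the cardiomyocyte markers brought it to −0.043 (adjusted p = 0.936, limma).

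Mapkapk3 (ENSRNOG00000014832) was at 0.990, 0.941 and 0.771 FPKM in sham and at 4.53, 1.89 and 1.8 FPKM in MI/RI. As for Mapkapk2, the groups did not overlap and MI/RI replicate 1 was far higher than the rest. On the log2 scale the change was 1.38 with a standard error of 0.35 (95% interval 0.60 to 2.16, adjusted p = 0.0156, limma), which is 2.60-fold (1.52 to 4.47). The call was lost without sham replicate 2 (1.41, adjusted p = 0.0507, limma) or sham replicate 3 (1.28, adjusted p = 0.0557, limma). It was lost too when samples were rescaled without the mitochondrial mRNAs (0.65, adjusted p = 0.169, limma). Between 130 and 587 reads lay behind each value.

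Mapkapk5 (ENSRNOG00000001345) was at 5.59, 8.71 and 7.34 FPKM in sham and at 14.9, 9.89 and 10.1 FPKM in MI/RI. The groups did not overlap. The log2 fold change was 0.68 with a standard error of 0.26 (95% interval 0.09 to 1.26, adjusted p = 0.0725, limma), so the gene was not called. It was called with a filter at a mean of 5 FPKM (adjusted p = 0.0428, limma) or after rescaling each sample to a common sum, TPM (0.87, adjusted p = 0.0432, limma), and was −0.10 when rescaled without the mitochondrial mRNAs.

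**Figure D3:**
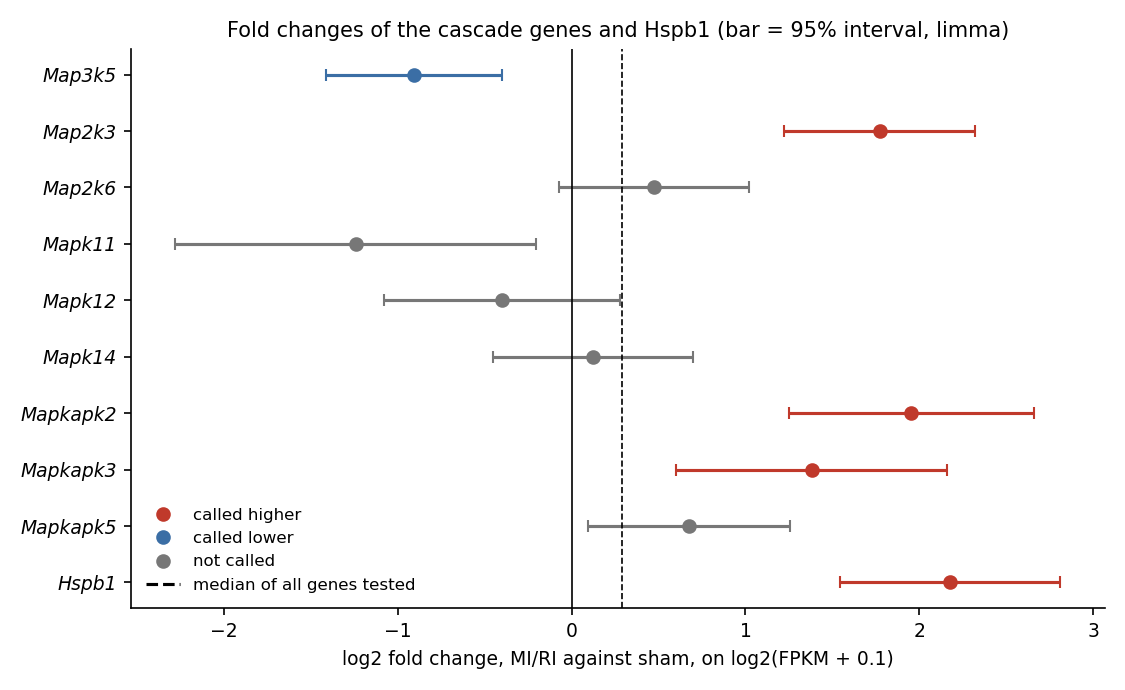
Log2 fold change of MI/RI against sham on log2(FPKM + 0.1) for the 9 cascade genes tested and Hspb1 (points) with 95% intervals from limma (bars), where the dashed line marks the median of all genes tested, 0.29. Map2k3 (1.77), Mapkapk2 (1.95), Mapkapk3 (1.38) and Hspb1 (2.18) were called higher and Map3k5 (−0.90) lower as deposited. When centred on the cardiomyocyte markers the first 3 turned in sign and Hspb1 was at 0.18, not called (adjusted p = 0.661, limma).

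The ratio of Mapkapk5 to Mapkapk2 (FPKM with nothing added) was 1.09, 2.10 and 2.22 in sham and 0.570, 0.739 and 0.813 in MI/RI. Mapkapk5 was thus the higher of the 2 in every sham sample and the lower in every MI/RI sample. On the log2 scale (FPKM + 0.1) the ratio was 0.77 ± 0.56 (SD, n = 3) in sham and −0.51 ± 0.26 (SD, n = 3) in MI/RI (difference −1.28, two-sided exact permutation test, p = 0.1, adjusted p = 0.2). For Mapkapk3 to Mapkapk2 it was −2.09 ± 0.15 (SD, n = 3) in sham and −2.66 ± 0.14 (SD, n = 3) in MI/RI (difference −0.57, two-sided exact permutation test, p = 0.1, adjusted p = 0.2). The groups did not overlap for either ratio, and the difference for Mapkapk3 is sensitive to the pseudocount at its low levels, being −0.85 with a pseudocount of 1.

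Hspb1 (ENSRNOG00000023546) was at 96.3, 60.7 and 56.9 FPKM in sham and at 394, 293 and 267 FPKM in MI/RI. The log2 fold change was 2.18 as deposited (adjusted p = 0.0022, limma) and 1.14 after quantile normalization. Centred on the cardiomyocyte markers, Hspb1 was at 0.18 and was not called (adjusted p = 0.661, limma). Its ratio to Mapkapk2 in the same sample (FPKM with nothing added) was 18.8, 14.6 and 17.2 in sham and 15.1, 21.9 and 21.6 in MI/RI. The ratios overlapped, with sham replicate 1 above MI/RI replicate 1. On the log2 scale the ratio was 4.04 ± 0.19 (SD, n = 3) in sham and 4.26 ± 0.30 (SD, n = 3) in MI/RI (difference 0.22, two-sided exact permutation test, p = 0.3, adjusted p = 0.36). Both genes were higher in MI/RI as deposited, and a change of their ratio was not detected, which does not show that they changed alike.

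**Figure D4:**
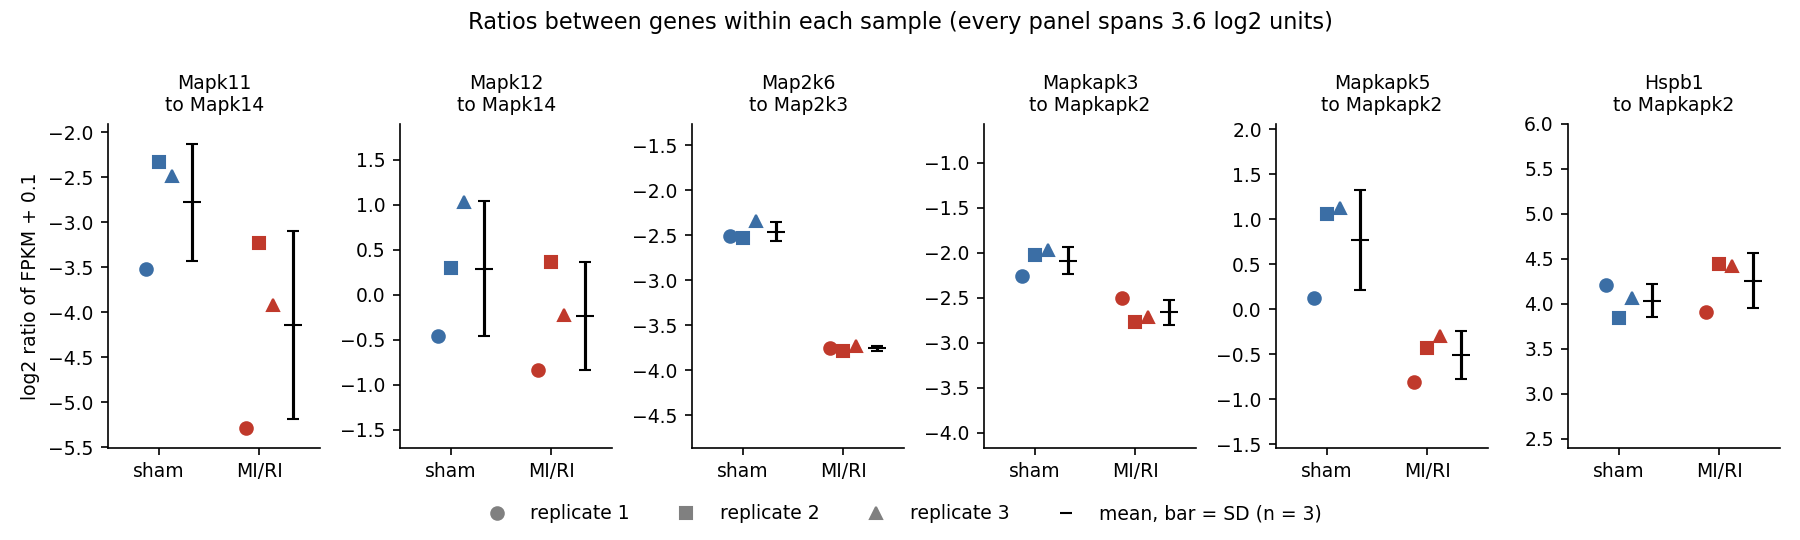
Log2 ratio of 2 genes in the same sample (FPKM + 0.1) for the 6 pairs compared, with sham in blue, MI/RI in red, marker shape for the replicate number and black bars for the mean ± SD (n = 3); every panel spans the same number of log2 units. Map2k6 to Map2k3, Mapkapk3 to Mapkapk2 and Mapkapk5 to Mapkapk2 do not overlap between groups (differences −1.30, −0.57 and −1.28), and the other 3 pairs do.

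Substrates of MK2, Hsp27 included, were looked at as a list of 10 genes, 9 of them matched. Of these, 5 were called higher and 0 lower (0 at an unadjusted p under 0.05, limma), against 25.5% and 7.36% of all genes tested. The median log2 fold change of the 9 was 1.22. The same 5 genes were called without any 1 sample. Zfp36, which encodes the mRNA-destabilizing protein tristetraprolin, was at 11.4, 10.2 and 4.56 FPKM in sham and at 113, 37.5 and 41.3 FPKM in MI/RI (log2 fold change 2.77, standard error 0.46, adjusted p = 0.0039, limma). Cryab, the small heat shock protein αB-crystallin, was at 1352, 437 and 344 FPKM in sham and at 2957, 2697 and 2289 FPKM in MI/RI (log2 fold change 2.16, standard error 0.46, adjusted p = 0.0082, limma). Neither gene overlapped between groups, and without sham replicate 1 the log2 fold change of Cryab was 2.76. The other genes called were Hspb1, Limk1, a kinase of cofilin, and Bag2, a co-chaperone. With samples rescaled without the mitochondrial mRNAs, 4 of the 9 were called higher, without Limk1, and 3 lower, namely Zfp36l1, Rcsd1 and Ripk1. After quantile normalization 5 were called higher and 1, Rcsd1, lower. Centred on the cardiomyocyte markers, 0 were called higher and 4 lower. Of all 10942 genes, 793 were called higher and 2857 lower without the mitochondrial mRNAs, and 1441 and 1559 after quantile normalization. Centred on the cardiomyocyte markers these numbers were 48 and 8217.

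Phosphatases that switch p38 off were a list of 8 genes, 7 of them matched and Dusp1 not. Of the 6 tested, 4 were called higher and 1 lower, against 25.5% and 7.36% of all genes tested, with a median log2 fold change of 0.82. Ppp2ca, a catalytic subunit of protein phosphatase 2A, was at 6.22, 7.5 and 5.22 FPKM in sham and at 26.7, 16.7 and 12.7 FPKM in MI/RI (log2 fold change 1.5, adjusted p = 0.0066, limma). Dusp8, a dual-specificity phosphatase of p38 and JNK, had a log2 fold change of 1.78 (adjusted p = 0.0178, limma), and Dusp16 one of 0.86 (adjusted p = 0.119, limma). Ppm1a and Ppm1b were called higher and Ppm1d, a phosphatase induced by p53, was called lower. Ppp2ca alone was called without MI/RI replicate 1. Without sham replicate 1, 2 or 3 or MI/RI replicate 2 there were 2 genes called higher, Dusp8 and Ppp2ca, and without MI/RI replicate 3 there were 4, with Dusp16 in place of Ppm1a. The call of Ppm1d was lost without sham replicate 2 or 3 or MI/RI replicate 1 or 2. Centred on the median or after quantile normalization, the calls of Ppm1a and Ppm1b were lost and those of Dusp8, Ppp2ca and Ppm1d kept. After rescaling to TPM the call of Ppm1d was lost. When samples were rescaled without the mitochondrial mRNAs, 0 were called higher and 1, Ppm1d, lower, against 793 and 2857 of all 10942 genes. Centred on the cardiomyocyte markers, 0 were called higher and 3 lower, where 8217 of all 10942 genes were called lower. Ppm1a and Ppm1b were then called lower with Ppm1d, and Dusp8 (−0.22), Ppp2ca (−0.50) and Dusp16 (−1.14) turned in sign.

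Scaffolds and partners of the cascade, against 25.5% higher and 7.36% lower over all genes, gave 1 gene called higher and 0 lower of 3 tested (0 lower at an unadjusted p under 0.05, limma). It was Mapk6, which encodes ERK3, a partner of MK5, at 2.32, 2.51 and 2.14 FPKM in sham and at 7.07, 6.99 and 5.6 FPKM in MI/RI (log2 fold change 1.45, standard error 0.21, adjusted p = 0.0030, limma). The groups did not overlap, and the value turned to −0.54 when centred on the cardiomyocyte markers. The call of Mapk6 was also lost when samples were rescaled without the mitochondrial mRNAs (0.69, adjusted p = 0.0677, limma). Ccm2, a scaffold of MKK3, had a log2 fold change of 0.61 (adjusted p = 0.059, limma) and Spag9, a scaffold that binds p38 and JNK, one of −0.036 (adjusted p = 0.935, limma). Ccm2 was called higher after rescaling to TPM (0.80, adjusted p = 0.0339, limma). Ccm2 and Spag9 were called lower when centred on the cardiomyocyte markers, where 8217 of all 10942 genes were.

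Other kinases activated by p38 gave 0 calls in either direction among 4 genes, and 1 higher and 1 lower at an unadjusted p under 0.05 (limma). Among all genes tested, 25.5% were called higher and 7.36% lower. Rps6ka5, which encodes MSK1, had a log2 fold change of −0.76 (adjusted p = 0.0716, limma), Mknk1 one of 0.63 (adjusted p = 0.0720, limma) and Mknk2 one of 0.38 (adjusted p = 0.293, limma). Rps6ka5 was called lower when centred on the median (−1.01, adjusted p = 0.0189, limma), after quantile normalization (adjusted p = 0.0417, limma), without the mitochondrial mRNAs (−1.45, adjusted p = 0.0142, limma) and centred on the cardiomyocyte markers, where all 4 genes were called lower. That centring called 8217 of all 10942 genes lower. Mknk1 was called higher after rescaling to TPM (adjusted p = 0.043, limma). Of 8 transcription regulators that p38 phosphorylates, 1 was called higher and 0 lower (1 lower at an unadjusted p under 0.05, limma), with a median log2 fold change of 0.45. Ppargc1a, which encodes the mitochondrial biogenesis coactivator PGC-1α, was at 0.813, 1.05 and 0.568 FPKM in sham and at 2.68, 3.80 and 2.88 FPKM in MI/RI. Its groups did not overlap (log2 fold change 1.84, standard error 0.28, adjusted p = 0.0032, limma), and its sign turned when centred on the cardiomyocyte markers (−0.16, adjusted p = 0.816, limma). There 0 of the 8 regulators were called higher and 6 lower, against 48 and 8217 of all 10942 genes. Elk1 had a value of 0.95 (adjusted p = 0.0587, limma, and 0.0483 with the replicate block) and Atf2 one of −0.56 (adjusted p = 0.0715, limma). Atf2 was called lower when centred on the median (adjusted p = 0.0147, limma), after quantile normalization (0.0187), without the mitochondrial mRNAs (0.0064) and centred on the cardiomyocyte markers, and Elk1 was called higher after rescaling to TPM (0.0362). A regulator besides Ppargc1a was called without sham replicate 1, namely Ddit3, or without MI/RI replicate 3, namely Elk1.

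Apart from quantile normalization, rescaling moves all genes of a sample together, so it changed where the cascade genes stood against 0 more than how they stood to each other. Over all genes, the median log2 fold change stood at 0.29 as deposited, 0.48 rescaled to TPM, 0.04 centred on the median, −0.02 after quantile normalization, −0.46 without the mitochondrial mRNAs and −1.71 centred on the cardiomyocyte markers. Map2k3 was at 1.77 as deposited and at 0.99 without the mitochondrial mRNAs, and Mapkapk2 at 1.95 and 1.18. Those 2 genes were called higher under each scaling except that on the cardiomyocyte markers, where 0 of the cascade genes were called higher and 6 lower. Over all 10942 genes, that centring called 48 higher and 8217 lower. Map3k5 was called lower under all 6, although centring on the cardiomyocyte markers lowers every fold change and could not have turned it.

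**Figure D5:**
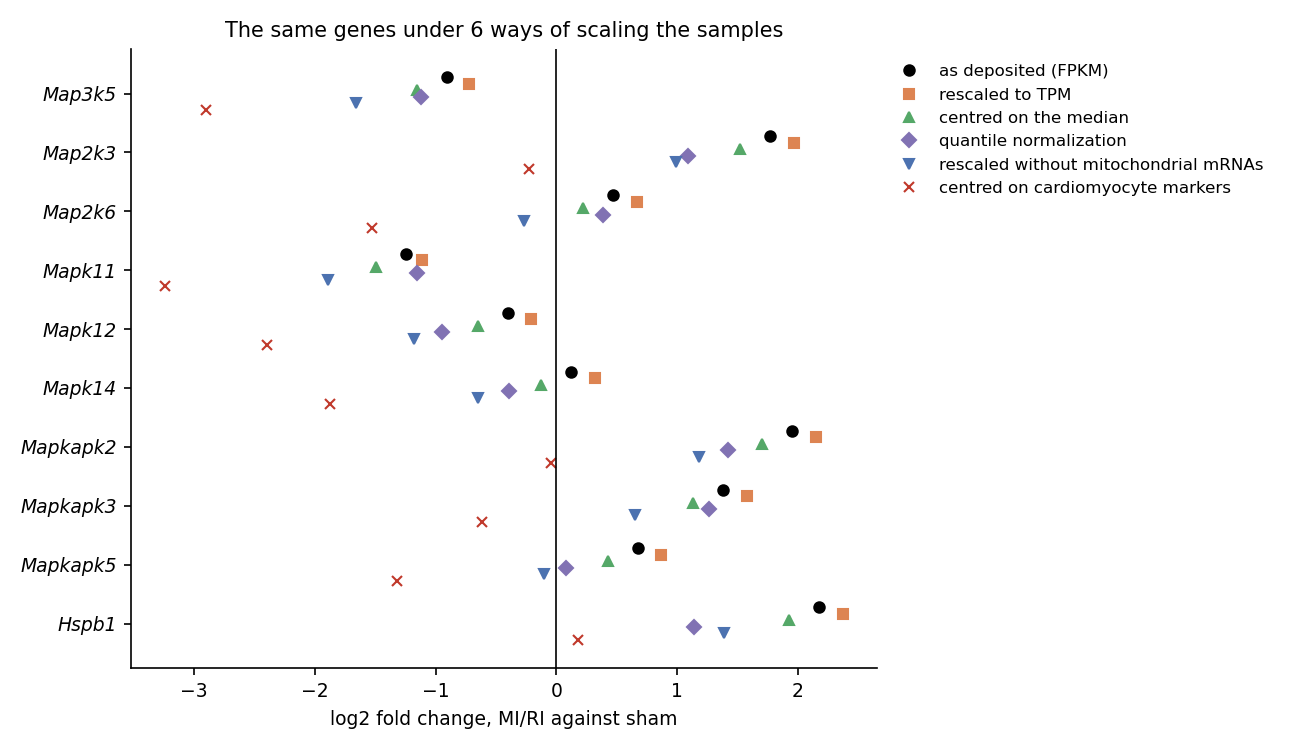
Log2 fold change (horizontal axis, MI/RI against sham) of the 9 cascade genes tested and Hspb1 under 6 ways of scaling the samples, 1 marker for each. Map3k5, Mapk11 and Mapk12 stay below 0 throughout, Map2k3, Mapkapk2 and Mapkapk3 are above 0 except when centred on the cardiomyocyte markers (−0.23, −0.043 and −0.62), and Mapk14 falls on both sides. Hspb1 is at 0.18 under that centring, where it was not called.

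Markers of other cells of the heart were set beside these values, where 25.5% of all genes tested were called higher and 7.36% lower. Fibroblast markers had 1 of 6 called higher, with a summed FPKM of 416 to 574 in sham and 590 to 653 in MI/RI. Endothelial markers had 0 of 6 called (1 higher and 1 lower at an unadjusted p under 0.05, limma), at 121 to 173 FPKM in sham and 139 to 176 FPKM in MI/RI. Smooth muscle markers had 0 of 4 called, also at an unadjusted p under 0.05 (limma), at 57.3 to 252 FPKM and 79.4 to 285 FPKM. Markers of neutrophils and monocytes had 2 of 5 tested called higher, S100a8 and S100a9, and 1 lower, Ccr2 (log2 fold change −1.33, adjusted p = 0.0261, limma). Their summed FPKM was 51.0 to 67.2 in sham and 73.5 to 140 in MI/RI. Lymphocyte markers had 0 called among 2 tested, also at an unadjusted p under 0.05 (limma). None of these markers was at 0 in all 6 samples, and the part of these cells in the values of the cascade was not tested.

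Likeness of pattern was measured as the root mean square difference of centred log2(FPKM + 0.1) over the 6 samples, among 3517 genes with a symbol and a mean of at least 5 FPKM. Genes nearest to Mapk14 were Galt (0.0567), Abhd4, Osbpl2, Hexa and Klf15 (0.0827). Those nearest to Mapkapk2 were Sdha (0.0501), a subunit of succinate dehydrogenase, Akr1b1, Pdhb, a subunit of pyruvate dehydrogenase, Ehd4 and Dhrs4 (0.0847). Within the cascade, Mapkapk2 and Mapkapk3 were the closest pair at 0.311, followed by Mapk14 and Map2k6 at 0.317. The nearest member to Map2k3 was Mapkapk2 at 0.342. The points share libraries and depth, and the values are descriptions.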

How the data were processed

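RNA from 3 sham and 3 MI/RI samples was analysed. Per the labels, total RNA went into a stranded library kit. The authors deposited FPKM values per gene and sample in 1 table, and the submitters' processing notes name STAR and HTSeq. Versions, the genome build, the annotation and how strand was used in counting are not given in the sources used here. Of 30452 rows, 7092 had no symbol, and rows that share a symbol were summed.

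Log2(FPKM + 0.1) of the 10942 genes with a mean of at least 0.5 FPKM was fitted with limma 3.58.1 in R 4.3.3 (lmFit, eBayes with an intensity trend). Adjusted p-values are Benjamini-Hochberg over these genes, and called means under 0.05. Standard errors and intervals are the moderated ones from limma. Ratios within a sample were compared with two-sided exact permutation tests in R (20 ways to divide the samples). Counting intervals were computed with Python 3.11.15 and scipy 1.17.1. The fit was tested on simulated data. FPKM is no count, so no count model was used. Reads recovered from the FPKM steps gave only relative depth (0.873 to 1.18 of sham replicate 1) and counting intervals, and reads without molecular identifiers are not independent molecules. Genes with close paralogs may share reads.

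The replicate numbers come from the labels. After subtracting group means, samples with the same number correlated at 0.203, 0.117 and 0.118 across genes, all over 0.1. MI/RI replicate 2 and sham replicate 3, however, correlated best with a sample of another number. The study pairs no samples either, so a pairing was not established. The fit above has no block, and the fit with a replicate block is given where it changes a call.

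The members and lists were chosen with earlier results of these data known. Named genes are the 10 cascade genes, Hspb1, from each pathway list (other upstream kinases, partners and inhibitors of ASK1, phosphatases of p38, scaffolds and partners, other kinases activated by p38, transcription regulators phosphorylated by p38, substrates of MK2) the 3 tested genes with the largest absolute log2 fold change, and the 5 genes nearest in pattern to Mapk14 and to Mapkapk2. Other list genes named were chosen after their values were seen, as those behind a count. Markers of cardiomyocytes, fibroblasts, endothelial and smooth muscle cells, neutrophils and monocytes, and lymphocytes were summed. A further marker list is not reported here. Promoter windows are RefSeq sequence of GRCr8.

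The 18 alternatives were pseudocounts of 1 and 0.01, no filter or one at a mean of 5 FPKM, quantile normalization, centring on the median, rescaling to TPM, rescaling without the 13 mitochondrial mRNAs, centring on the cardiomyocyte markers, no intensity trend, the replicate block, the highest row of each symbol, and leaving out each sample.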

Additional observations from a re-analysis of the deposited data

How the results depend on the processing

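With 3 samples a group, a permutation test cannot give a p under 0.1, and Mapk13 was too shallow to test. Fold changes depended on scaling. Of all calls, 77.6% were higher as deposited, 87.3% after rescaling to TPM, 56.5% centred on the median, 48.0% after quantile normalization, 21.7% rescaled without the mitochondrial mRNAs and 0.581% centred on the cardiomyocyte markers. The cause was not tested. Genes called higher numbered 2790, and 1441 (quantile), 793 (without mitochondrial mRNAs) and 48 (cardiomyocyte markers) under those scalings. Genes called lower numbered 805, and 166 with a filter at 5 FPKM (fewer genes tested), 504 (TPM), 1554 (median), 1559 (quantile), 2857 (without mitochondrial mRNAs) and 8217 (cardiomyocyte markers). Without any 1 sample they ranged from 1528 to 2557 and from 309 to 881, the lowest without sham replicate 3 and sham replicate 2. Of the cascade genes, 3 were called higher, 4 after rescaling to TPM, 2 without a filter or without the mitochondrial mRNAs, and 0 when centred on the cardiomyocyte markers. With the filter at 5 FPKM there were 3, with Mapkapk5 among them and Mapkapk3 not tested. The 1 called lower became 0 with the filter at 5 FPKM, 2 centred on the median, with no trend or with the block, 3 without the mitochondrial mRNAs and 6 centred on the cardiomyocyte markers. Without any 1 sample these counts were 2 to 3 and 0 to 2.

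Mapk14 reversed when centred on the median (−0.13), after quantile normalization (−0.39), without the mitochondrial mRNAs (−0.65) and centred on the cardiomyocyte markers (−1.87), and ranged from −0.069 to 0.29 without any 1 sample, with −0.017 without sham replicate 3 and −0.069 without MI/RI replicate 1. Without the mitochondrial mRNAs, Map2k6 (−0.26) and Mapkapk5 (−0.10) reversed. Centred on the cardiomyocyte markers, Map2k3 (−0.23), Map2k6 (−1.52), Mapkapk2 (−0.043), Mapkapk3 (−0.62) and Mapkapk5 (−1.32) reversed. The ratio of Mapkapk3 to Mapkapk2 moved to −0.85 with a pseudocount of 1. After quantile normalization the ratios of Mapkapk3 to Mapkapk2, Map2k6 to Map2k3 and Hspb1 to Mapkapk2 were −0.16, −0.70 and −0.28. Without a filter, Mapkapk3 was not called (adjusted p = 0.0541, limma). With the replicate block 3085 genes were called higher and 895 lower. Among the cascade genes and Hspb1 the block changed the call of Mapk11 (adjusted p = 0.0225, limma) and no other.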
